A study of Mus musculus with 3 samples.

Results

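Kupffer cells, the resident macrophages of the liver sinusoids, were compared between a mouse fed chow and a mouse fed an ethanol liquid diet for 3 days. A Kupffer cell was a barcode with at least 1000 UMIs (unique molecular identifiers, each standing for 1 captured RNA molecule), at least 300 genes, at most 10% of its UMIs from mitochondrially encoded genes, and at least 1% of its UMIs from Clec4f, Cd5l, C1qa, C1qb and C1qc together. By this rule 2537 of 2767 cells in the chow library (91.7%, exact Clopper-Pearson 95% interval 90.6% to 92.7%) and 3820 of 4061 cells in the 3-day library (94.1%, 93.3% to 94.8%) were Kupffer cells. Together they were 6357 of the 9842 cells past the same UMI, gene and mitochondrial limits in the 3 libraries of the series.

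All mice were males of 8 weeks. The control, labelled Chow, ate normal chow, the 3-day EtOH mouse ate Lieber-DeCarli diet with 5% ethanol for 3 days, and the 10-day EtOH mouse, whose values are given only beside the others, ate it for 10 days. Both ethanol libraries are set against the same chow library, so their differences from it are not independent. No strain or genotype is given in the labels. Cells were freed by liver perfusion with collagenase, non-parenchymal cells were enriched by centrifugation, live cells with high F4/80 and intermediate CD11b were sorted, and RNA was captured with the 10x Genomics 3' v2 chemistry. Each group was 1 mouse, 1 sort and 1 library. Intervals on ratios and shares therefore cover counting error only, no test between groups is possible, and a difference between diets cannot be told apart from one between mice, sorts or libraries. Since the control was given solid chow, effects of ethanol and of the liquid diet cannot be told apart either.

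Kupffer cells sit in the sinusoids and clear particles, bacterial products from the gut, haemoglobin complexes and ageing red cells from portal blood. They keep their identity through factors such as LXR alpha (Nr1h3), Id3 and Spic, present antigen on class II molecules, recycle iron, and make chemokines and lipid mediators. Ethanol is oxidised mainly in hepatocytes, and the liver then stores more fat. More bacterial product can reach the portal blood, which Kupffer cells sense through Toll-like receptors.

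The Kupffer cells held 12534618 UMIs in chow and 12964325 at 3 days. Chow cells were deeper, with a median of 4675 UMIs and 1894 genes against 3117 UMIs and 1468 genes at 3 days. Median mitochondrial shares were 5.23% and 5.18%. The 5 genes of the rule made up a median of 2.36% of a Kupffer cell's UMIs in chow and 2.16% at 3 days. Close to the limit, 16 chow and 40 3-day cells lay between 1% and 1.2%, and 10 and 12 cells lay just outside, between 0.8% and 1%. The libraries shared 16 Kupffer barcodes. The 11 Kupffer cell markers outside the rule (such as Vsig4, Timd4, Adgre1 and Slc40a1) summed to 11710.4 CPM (a gene's share of all Kupffer cell UMIs of a library, times 1000000) in chow and 13649.1 CPM at 3 days, and all were measured in both groups. Markers of other cells were low: T cell genes summed to 116 and 92.6 CPM, endothelial genes to 266 and 244 CPM, neutrophil genes to 107 and 104 CPM, monocyte genes to 347 and 330 CPM, and hepatocyte genes to 1295 and 1464 CPM. The B and plasma cell list differed between groups, with 176 CPM in chow and 45.3 CPM at 3 days, and no barcode was removed as a doublet in the main sums.

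UMIs were summed over the Kupffer cells of each library, and the ratio of 3 days over chow was taken for the 7549 genes with a mean of at least 10 CPM. Of these, 239 genes (3.17% of those measured) had a ratio of at least 1.5 and are called higher. A further 94 genes (1.25%) had a ratio of at most 1/1.5 and are called lower. Counts of calls in the lists below stand against these shares, at which a short list would hold few calls. The median log2 ratio (1 CPM added to both sides) was 0.04, and 5% of genes lay below -0.38 and 5% above 0.49. A ratio of at least 2 was reached by 29 genes, and 17 genes had at most 0.5. To turn 1 summed profile into the other, 7.21% of the UMIs would have to move between genes. The balance of higher to lower genes depended on scaling and depth: it was 187 to 125 after the median ratio was set to 1, and 162 to 175 among cells of 2000 to 5000 UMIs (1211 chow and 2511 3-day cells). Of the calls in these cells, 110 higher and 65 lower genes were also called in the full sums.

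**Figure D1:**
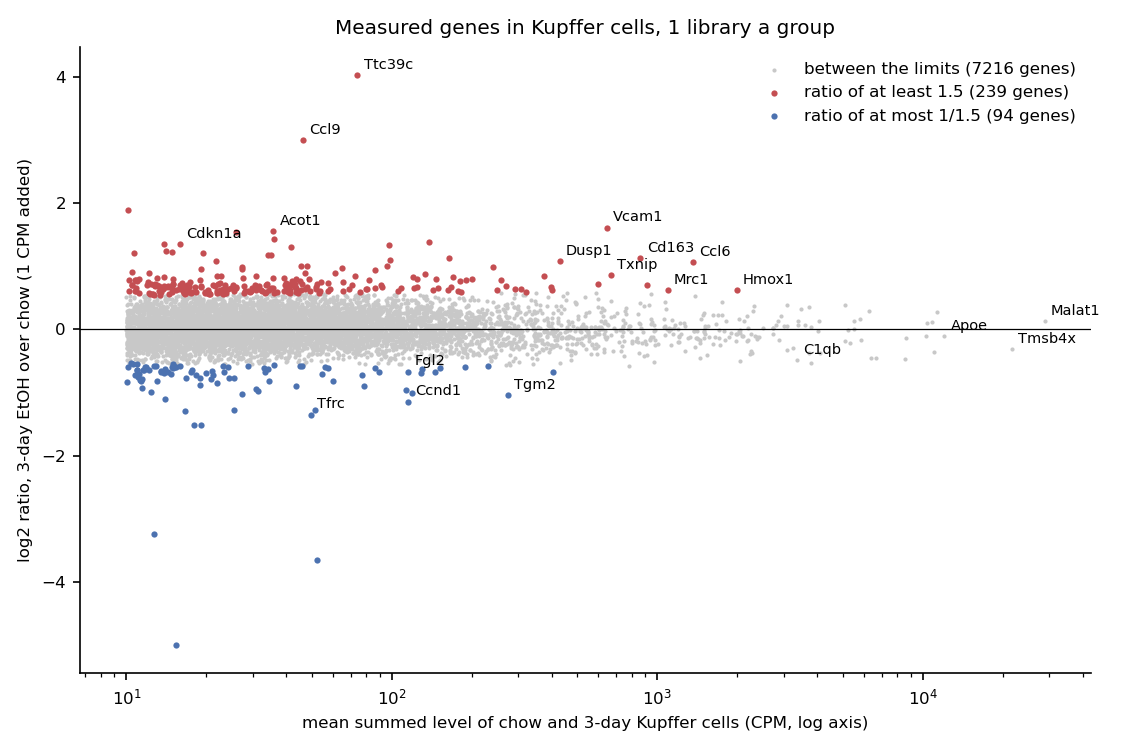
Each point is 1 of the 7549 measured genes in Kupffer cells, with the mean of the chow and 3-day summed levels in CPM on the log x axis and the log2 ratio of 3-day EtOH over chow on the y axis. Most genes lie near 0, the 239 called higher (red) and 94 called lower (blue) lie mostly below a mean of 1000 CPM, and the labelled genes Ttc39c, Ccl9 and Vcam1 lie among the highest.

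Of the receptors that clear ligands from blood, some were higher at 3 days. Cd163, the receptor for haemoglobin bound to haptoglobin (ENSMUSG00000008845, chr6:124304656-124330527 on GRCm38, plus strand), had 543 CPM in chow, 1186 CPM at 3 days and 593 CPM at 10 days. Only the 3-day library was high, and the ratio of 3 days over chow was 2.18 (95% counting interval 2.12 to 2.25). Mrc1, the mannose receptor (ENSMUSG00000026712, chr2:14229392-14332057), had 861, 1325 and 1400.2 CPM in the same order, so both ethanol libraries were above chow. Its ratio of 1.54 (1.502 to 1.577) lay between 1.22 and 1.33 in 3 classes of cells of like depth. Of the 12 measured scavenger receptors, 4 were higher and 0 lower. The other 2 higher ones were the fatty acid receptor Cd36, with 106 against 186 CPM, and the collectin Colec12, with 7.90 against 14.5 CPM. Marco, which binds bacteria, had 329 and 346 CPM, and Cd68, a lysosomal glycoprotein of macrophages, had 366 and 279 CPM. The median log2 ratio of the list was 0.07, close to that of all genes.

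Among other surface proteins, Cd300lb, an activating receptor that pairs with DAP12, had 31.7 CPM in chow, 64.4 CPM at 3 days and 65.1 CPM at 10 days. Both ethanol libraries stood at about the same level, and the ratio at 3 days was 2.03 (1.80 to 2.30). Ms4a8a, a membrane-spanning protein of macrophages, had 43.5, 86.2 and 102 CPM, a ratio of 1.98, while its relative Ms4a7 had 76.7, 43.0 and 34.3 CPM, a ratio of 0.56 (0.50 to 0.62). Within classes of cells of like depth the ratio of Ms4a8a was 1.29 to 2.09. The 2 family members thus lay on opposite sides of chow in both ethanol libraries. The vascular adhesion receptor Vcam1 had 317, 969.9 and 249 CPM. It was the one of 21 measured integrin and adhesion genes called higher, while the integrin alpha chain Itgam (28.5 against 15.3 CPM) and the tetraspanin Tspan15 (149 against 76.5 CPM) were lower. Cd44, the hyaluronan receptor, had 779.7 CPM in chow and 1009.6 CPM at 3 days, below the limit of 1.5. Of 24 receptors for cytokines and growth factors 2 were higher and 0 lower, among them the chemokine receptor Cx3cr1 (6.06 against 15.3 CPM). That list did not hold Il2rg, described further on, which was called lower. In chow, 84.2% of Cx3cr1 UMIs came from the 1% of cells with the most of them, so its level there rested on few cells.

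**Figure D2:**
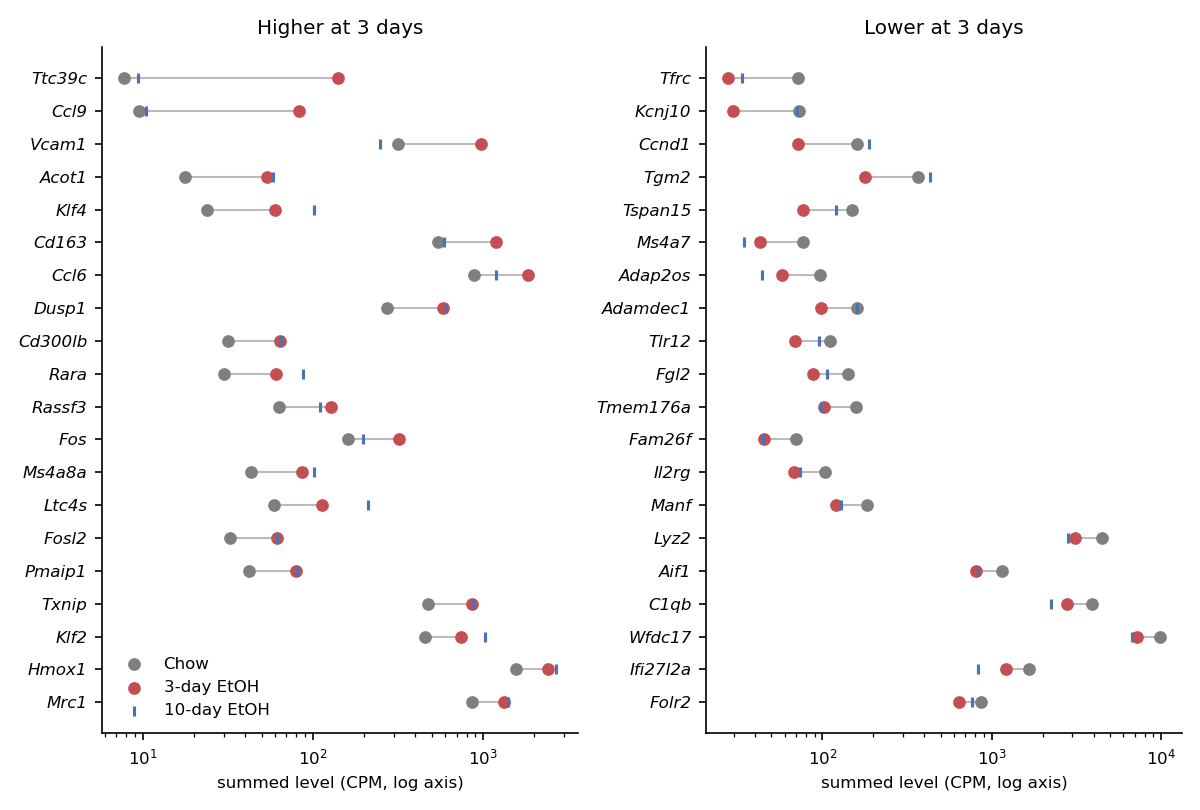
Summed levels in CPM (log x axis) of 20 genes higher and 20 genes lower at 3 days, 1 point for each library of Kupffer cells (grey chow, red 3-day EtOH, blue bar 10-day EtOH). The 10-day bar lies near chow for Cd163, Vcam1, Tgm2 and Kcnj10, and near or beyond the 3-day point for Dusp1, Klf4, Ltc4s, Mrc1, Tfrc and Ms4a7.

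Several chemokine genes had higher levels at 3 days. Ccl6 and Ccl9, neighbouring genes of mouse chromosome 11 whose products attract myeloid cells, were both higher. Ccl6 (ENSMUSG00000018927, chr11:83587882-83593087, minus strand) had 881 CPM in chow, 1848 CPM at 3 days and 1187 CPM at 10 days, a ratio of 2.10 (2.05 to 2.15) at 3 days. Ccl9 (chr11:83572919-83578636) had 9.57, 83.2 and 10.5 CPM. Of 13 measured chemokines, 4 were higher and 0 lower, the other 2 being Ccl3 (18.7 against 29.6 CPM) and Ccl4 (39.7 against 63.5 CPM), which attract monocytes and T cells. Cxcl13, which attracts B cells, had 261 and 215 CPM, Cxcl16, a scavenger receptor and chemokine, had 325 and 269.5 CPM, and the monocyte attractant Ccl2 had 42.9 and 44.3 CPM. Cytokine and growth factor genes gave 4 of 13 higher: Tgfbi, a matrix protein (189 against 326 CPM), Hgf, a growth factor for hepatocytes (15.9 against 24.8 CPM), Pdgfb (32.4 against 49.1 CPM) and Il6 (7.82 against 13.3 CPM). Il1b, an inflammatory cytokine gene, had 296 CPM in chow and 362 CPM at 3 days, a ratio of 1.22 that did not reach the limit (1.84 in cells of 1000 to 2000 UMIs), and Igf1 had 706 and 553 CPM. Tnf and Il10 were below 10 CPM on average.

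Immediate-early genes, which are transcribed within minutes of many stimuli and also of tissue digestion, were the list with the most members called. Of 18 measured members 10 were higher and 0 lower, against 3.17% and 1.25% of all measured genes, and the median log2 ratio was 0.61. Dusp1, a phosphatase that ends MAP kinase signals (ENSMUSG00000024190, chr17:26505590-26562128, minus strand), had 274 CPM in chow, 582 CPM at 3 days and 608 CPM at 10 days. Fos, a subunit of the AP-1 factor, had 160.4, 319.6 and 197 CPM, so it was highest at 3 days, whereas its relative Fosl2 had 32.6, 61.6 and 61.9 CPM. Klf2, a factor that dampens macrophage activation, had 454, 744 and 1032 CPM, and Zfp36, which degrades cytokine messages, had 141, 215 and 211 CPM. Others were not called: Atf3 had 18.2 and 16.1 CPM and Myc 23.5 and 19.1 CPM. In lymphocytes of the same libraries (148 chow and 105 3-day cells with at least 3 UMIs of T and NK cell genes), the list summed to 1789 CPM in chow and 1634 CPM at 3 days, a ratio of 0.91 (0.83 to 1.01). In endothelial cells (42 and 98 cells) it was 0.94 (0.81 to 1.08). The same sum in Kupffer cells was 2292 CPM in chow and 3757 CPM at 3 days, a ratio of 1.64. In barcodes of 10 to 100 UMIs, which hold mostly free RNA, the list had 2587 and 3949 CPM. The part of handling in these values was not tested.

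The promoters of 2 of these genes are shown because both carry the cyclic AMP response element TGACGTCA, a palindrome bound by CREB and related factors. The element was found within 250 bases before a transcription start in 3 of 21 immediate-early genes with a RefSeq window and in 1.77% of 27025 genes. It was also found in 1 of 7 class II genes and 2 of 18 glucocorticoid-induced genes, and lack of a match says nothing about other sites. Dusp1 is the gene described above, and Btg2, an antiproliferative gene, had 113 CPM in chow and 158 CPM at 3 days, a ratio of 1.40. The 200 bases before each start are printed 5' to 3' on the gene's strand (RefSeq, GRCm38.p6), at chr17:26508473-26508672 (minus strand) for Dusp1 and chr1:134079156-134079355 (minus strand) for Btg2, with the element in capitals.
Dusp1: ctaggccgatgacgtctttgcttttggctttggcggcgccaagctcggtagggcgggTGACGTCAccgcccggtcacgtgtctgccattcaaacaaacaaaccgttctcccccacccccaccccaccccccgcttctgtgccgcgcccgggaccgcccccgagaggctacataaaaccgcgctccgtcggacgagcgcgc
Btg2: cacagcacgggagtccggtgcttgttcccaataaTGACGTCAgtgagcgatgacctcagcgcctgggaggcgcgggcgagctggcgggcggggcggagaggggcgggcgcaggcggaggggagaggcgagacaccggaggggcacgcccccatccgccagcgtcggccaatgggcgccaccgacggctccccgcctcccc

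Transcription factors of the Kupffer lineage differed little from chow. Of 24 measured, 18 had a ratio above 1 (against 56.5% of all measured genes), 2 were called higher and 0 lower, and the median log2 ratio was 0.17. The 2 were Cebpb, a myeloid factor induced by cytokines, with 315, 484 and 804 CPM in the chow, 3-day and 10-day libraries, and Tfec, a factor of the MITF family, with 60.5, 91.4 and 66.0 CPM. Nr1h3 had 547 and 695 CPM, Maf 961 and 1203 CPM, Id3 702 and 778 CPM and Spic 107 and 123 CPM. Outside the list, Rara, the retinoic acid receptor alpha (ENSMUSG00000037992, chr11:98927818-98974942), had 30.0, 60.9 and 87.1 CPM, a ratio of 2.03 (1.79 to 2.30) at 3 days. Rassf3, a RAS-association domain protein, had 63.3, 128 and 110.2 CPM, a ratio of 2.02 (1.856 to 2.202). Within the 3 classes of cells of like depth the ratio of Rassf3 was lower, 1.31 to 1.69.

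Genes known to be induced by glucocorticoids overlapped with these lists. Dusp1, Cd163 and Cebpb, all called higher, were already counted in other lists. Of 11 measured, 6 were higher and 0 lower, with a median log2 ratio of 0.62, or 0.40 in cells of 2000 to 5000 UMIs. Tsc22d3, the glucocorticoid-induced leucine zipper, had 93.7 CPM in chow, 172 CPM at 3 days and 186 CPM at 10 days. The metallothionein gene Mt1 had 139.8, 241 and 124 CPM, and the sulfotransferase Sult1a1 had 54.7, 139.6 and 51.7 CPM, so these 2 were highest at 3 days. Fkbp5, a chaperone of the receptor, had 41.5 and 55.1 CPM (ratio 1.33, and 0.78 in cells of 1000 to 2000 UMIs), and Sgk1, a kinase also on the list, had 187 and 169 CPM. In lymphocytes the summed list had a ratio of 1.04 (0.89 to 1.22), and in endothelial cells it had 2.06 (1.83 to 2.33), from 2385 to 4918 CPM. The same sum in Kupffer cells had a ratio of 1.65.

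Among lipid genes, calls were higher in the list of storage and use and lower in the list of sterol synthesis and uptake. Of 27 measured genes for fatty acid uptake, droplets and oxidation, 5 were higher and 0 lower, and the median log2 ratio was 0.25. Plin2, the coat protein of lipid droplets, had 103 CPM in chow, 227 CPM at 3 days and 272 CPM at 10 days. The acyl-CoA thioesterases Acot1 (17.7, 53.9 and 58.3 CPM) and Acot2 (22.9, 37.9 and 42.2 CPM) are close paralogs that 3' counting could mix, so their split is uncertain. Acaa2, a thiolase of beta-oxidation, had 27.0 and 43.1 CPM, and Cpt1a, which brings fatty acids into mitochondria, had 85.2 and 123 CPM, a ratio of 1.44. Lpl, the lipase that releases fatty acids from lipoproteins, had 1492, 2014 and 2548 CPM. The pooled ratio of Lpl was 1.35, and it was 1.10 to 1.21 within depth classes. Among 9 measured genes of cholesterol synthesis and uptake, 0 were higher and 3 lower, among them the carrier Stard4 (13.2 against 6.94 CPM) and the factor Srebf2 (29.0 against 17.7 CPM). All 9 genes were under 50 CPM. The sum of this list had ratios of 0.50 (0.41 to 0.62) in lymphocytes, 0.66 (0.47 to 0.95) in endothelial cells and 0.76 in Kupffer cells. For the fatty acid list the ratios were 1.16 (1.02 to 1.31), 1.38 (1.24 to 1.54) and 1.27 in the same order. Neither direction was thus particular to Kupffer cells. Of 18 measured LXR targets and cholesterol export genes, 1 was higher, the exporter Abca1, with 229 CPM in chow, 355 CPM at 3 days and 371 CPM at 10 days, and the median log2 ratio was 0.13.

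Genes of lipid mediators included Ltc4s, the leukotriene C4 synthase (ENSMUSG00000020377, chr11:50236461-50238616, minus strand). It had 59.0 CPM in chow, 114 CPM at 3 days and 212 CPM at 10 days, the highest level being in the longer exposure. Of 19 measured eicosanoid genes 4 were higher and 0 lower, the others being Pla2g7, which degrades platelet-activating factor (255 against 384 CPM), Cyp4f18, which inactivates leukotriene B4 (19.8 against 35.4 CPM), and the prostaglandin receptor Ptger4 (9.97 against 15.2 CPM). Alox5ap, the partner of 5-lipoxygenase, had 263 and 331 CPM, whereas cyclooxygenase 1 (Ptgs1) had 597 and 479 CPM. The median log2 ratio was 0.09, close to that of all genes, and -0.09 in cells of 2000 to 5000 UMIs.

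Of the redox and haem genes, Txnip and Hmox1 were above chow in both ethanol libraries. Txnip, which binds thioredoxin and limits glucose uptake (ENSMUSG00000038393, chr3:96557957-96561883), had 474 CPM in chow, 861 CPM at 3 days and 870.0 CPM at 10 days. Hmox1, the enzyme that degrades haem, had 1569, 2414 and 2697 CPM. The ratio at 3 days was 1.82 for Txnip and 1.54 for Hmox1, and within depth classes 1.41 to 1.60 and 1.202 to 1.336. Both were also above chow in lymphocytes, with ratios of 1.86 (1.41 to 2.47) for Txnip and 2.15 (1.58 to 2.92) for Hmox1. For Hmox1 the lymphocyte level at 3 days was 243 CPM, and the part of free RNA in it was not tested. Txnip was in no list. Of 26 antioxidant genes 13 had a ratio above 1 and 13 below, and 2 were higher, Hmox1 and the secreted peroxidase Gpx3 (83.7 against 132 CPM). Sod1, the cytosolic superoxide dismutase, had 368 and 547 CPM, a ratio of 1.49 just under the limit, while the peroxiredoxin Prdx5 had 819.6 and 644 CPM. The heat shock cognate Hspa8 had 763, 1124 and 1263 CPM, but of 17 chaperones 0 were higher and 1 was lower, the cochaperone Stip1 (41.1 against 25.4 CPM).

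Iron genes lay on both sides of chow. The transferrin receptor Tfrc, whose message is degraded when iron is ample, had 71.8 CPM in chow, 27.5 CPM at 3 days and 33.5 CPM at 10 days, a ratio of 0.38 (0.34 to 0.43). The ferritin chains Fth1 (7685, 5617 and 5024 CPM) and Ftl1 (12338, 9669 and 8166 CPM) were below chow in both ethanol libraries without reaching the limit. The pooled ratio of Ftl1 was 0.78, and it was 0.89 to 0.99 within depth classes. The exporter Slc40a1 had 3255, 4179 and 4299.7 CPM. Of 19 measured iron and haem genes, 2 were higher, Cd163 and Hmox1, and 1 was lower.

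Among the 37 functional lists, class II antigen presentation had the lowest median, a log2 ratio of -0.43. Of 8 measured members, 7 had a ratio below 1, but only 1 passed the limit, the class II transactivator Ciita (15.1 CPM in chow and 9.26 CPM at 3 days). The peptide-binding chains H2-Ab1 (2392, 1688 and 1591 CPM in the chow, 3-day and 10-day libraries), H2-Aa (2533, 1926 and 1756 CPM) and H2-Eb1 (1758, 1325 and 1149 CPM) lay close together, with ratios of 0.71, 0.76 and 0.75. The invariant chain Cd74 had 7375, 5412 and 4826 CPM. The exception was H2-DMb2, a peptide-exchange chain, with 11.4 and 11.6 CPM, close to the limit of 10 CPM, so its ratio rests on few UMIs. Per cell, the list held a median of 12 UMIs per 1000 in chow and 8 at 3 days, and 29.2% of 3-day cells were above the chow median, against 48.3% of chow cells. In lymphocytes and endothelial cells it was also lower, with ratios of 0.56 (0.54 to 0.58) and 0.79 (0.74 to 0.84). The lymphocyte barcodes held 18208 CPM of the list in chow and 10223 CPM at 3 days, against 14757 and 10868 CPM in Kupffer cells. They were chosen by T and NK cell genes without removing barcodes that also held B or dendritic cell RNA. The part of such barcodes in the ratio of 0.56 was not tested. In barcodes of 10 to 100 UMIs the list had 12513 CPM in chow and 8815 CPM at 3 days. Summed markers of B and plasma cells, which carry class II, were lower there too, at 1110 and 139 CPM, and their part in these values was not tested.

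The upstream regions of 4 class II genes are shown because their members share the Y box, a site of the promoter module through which Ciita acts. It was searched as GATTGG on both strands and can overlap any CCAAT box. All 7 of the 10 list members with a RefSeq window held it in the 250 bases before a start, against 16.6% of 27025 genes, 10 of 15 genes of cholesterol synthesis and 3 of 21 immediate-early genes. H2-DMb2, whose level was near the limit for measured genes and little different from chow, held it as well. The 200 bases before each start are printed 5' to 3' (RefSeq, GRCm38.p6), with GATTGG, or CCAATC where it lies on the other strand, in capitals. They lie at chr17:34287824-34288023 (minus strand) for H2-Aa, chr17:34305667-34305866 for H2-Eb1, chr17:34152991-34153190 for H2-DMb1 and chr17:34145049-34145248 for H2-DMb2.
H2-Aa: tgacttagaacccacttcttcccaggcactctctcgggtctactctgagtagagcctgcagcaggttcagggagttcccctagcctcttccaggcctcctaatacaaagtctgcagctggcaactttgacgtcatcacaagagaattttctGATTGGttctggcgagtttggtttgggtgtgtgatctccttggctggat
H2-Eb1: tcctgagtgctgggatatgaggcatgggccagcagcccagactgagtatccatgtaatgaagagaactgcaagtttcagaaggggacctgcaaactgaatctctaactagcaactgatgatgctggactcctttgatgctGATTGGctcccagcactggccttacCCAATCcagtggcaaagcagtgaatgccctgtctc
H2-DMb1: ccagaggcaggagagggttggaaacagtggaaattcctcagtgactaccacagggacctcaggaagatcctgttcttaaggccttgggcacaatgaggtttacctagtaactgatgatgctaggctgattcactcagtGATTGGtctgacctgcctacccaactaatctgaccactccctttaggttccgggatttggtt
H2-DMb2: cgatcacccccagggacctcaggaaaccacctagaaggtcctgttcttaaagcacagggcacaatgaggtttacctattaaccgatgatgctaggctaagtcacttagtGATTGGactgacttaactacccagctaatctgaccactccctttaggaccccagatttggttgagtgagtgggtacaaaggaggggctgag

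Class I and interferon genes were shifted less. Of 19 class I and peptide-loading genes 0 were called in either direction, and 15 had a ratio below 1, with a median log2 ratio of -0.18. The immunoproteasome subunit Psmb8 had 328 and 225 CPM, and the proteasome activator Psme2, which was not on the list and was called lower, had 277, 184 and 189 CPM. The ratio of Psme2 was 0.66 in all cells and 1.00 in cells of 1000 to 2000 UMIs. The heavy chain H2-K1 went the other way, with 2025 and 2336 CPM, but class I genes are near-identical copies and reads could be shared among them. Of 29 interferon-response genes 0 were higher and 1 lower, Gbp2 (57.0, 30.2 and 32.6 CPM), a guanylate-binding protein. Irf1, a factor induced by interferon, had 127, 86.3 and 145 CPM. Usp18, a brake on interferon signalling, had 21.6 and 31.3 CPM.

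Other immune genes lower at 3 days included several that were near chow at 10 days. Adamdec1, a secreted metalloprotease-like protein of tissue macrophages (ENSMUSG00000022057, chr14:68563380-68582095), had 159 CPM in chow, 98.0 CPM at 3 days and 159 CPM at 10 days, a ratio of 0.61 (0.57 to 0.66). Within depth classes the ratio of Adamdec1 was 0.53 to 0.55. Tlr12, a Toll-like receptor of mouse macrophages that recognises profilin (ENSMUSG00000062545, chr4:128615443-128618619), had 110.3, 68.7 and 95.8 CPM, a ratio of 0.62 (0.57 to 0.68). The transglutaminase Tgm2, used in uptake of dying cells, had 368, 178 and 433 CPM. Others were low in both ethanol libraries: Fgl2, a fibrinogen-like immunoregulator, had 142, 88.6 and 107 CPM, and Il2rg, the common gamma chain of cytokine receptors, had 104, 68.1 and 73.4 CPM. Tmem176a, an ion channel-like membrane protein, had 158, 102 and 97.7 CPM, and Fam26f, an interferon-inducible membrane protein, had 69.8, 45.1 and 44.8 CPM. Of the 24 measured genes of the Toll-like receptor signalling list, which does not hold Tlr12, 0 were called in either direction. Tlr4 had 46.2 and 57.9 CPM and its coreceptor Cd14 had 79.7 and 113 CPM.

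Complement C1q chains, which opsonise debris, are also part of the rule that chose the cells, so their values are partly set by it. C1qb had 3937 CPM in chow, 2801 CPM at 3 days and 2236 CPM at 10 days, C1qa had 5707, 4906 and 4375 CPM, and C1qc had 5418, 4766 and 4922 CPM. Clec4f and Cd5l, the other genes of the rule, had 4071 and 4004 CPM, and 5263 and 5779.7 CPM, in chow and at 3 days. The 2 abundant macrophage genes Lyz2, lysozyme (4501, 3111 and 2838 CPM), and Wfdc17 (9909.7, 7171 and 6756 CPM), an antiprotease-like secreted protein, were below chow in both ethanol libraries. Folr2, a folate receptor of resident macrophages, had 861, 642 and 760.5 CPM, and Aif1, an actin-binding protein, had 1147, 804 and 834 CPM. Their ratios of 0.69 to 0.75 did not reach the limit, yet they were among the largest differences in CPM or in the share of cells. Among 11 measured genes of alternative complement and complement receptors, C3 was higher (18.2 against 27.9 CPM), and Itgam and the decay-accelerating factor Cd55 (41.6 against 26.5 CPM) were lower. Ratios of C1qb and Lyz2 within depth classes were 0.72 to 0.84 and 0.76 to 0.79.

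**Figure D3:**
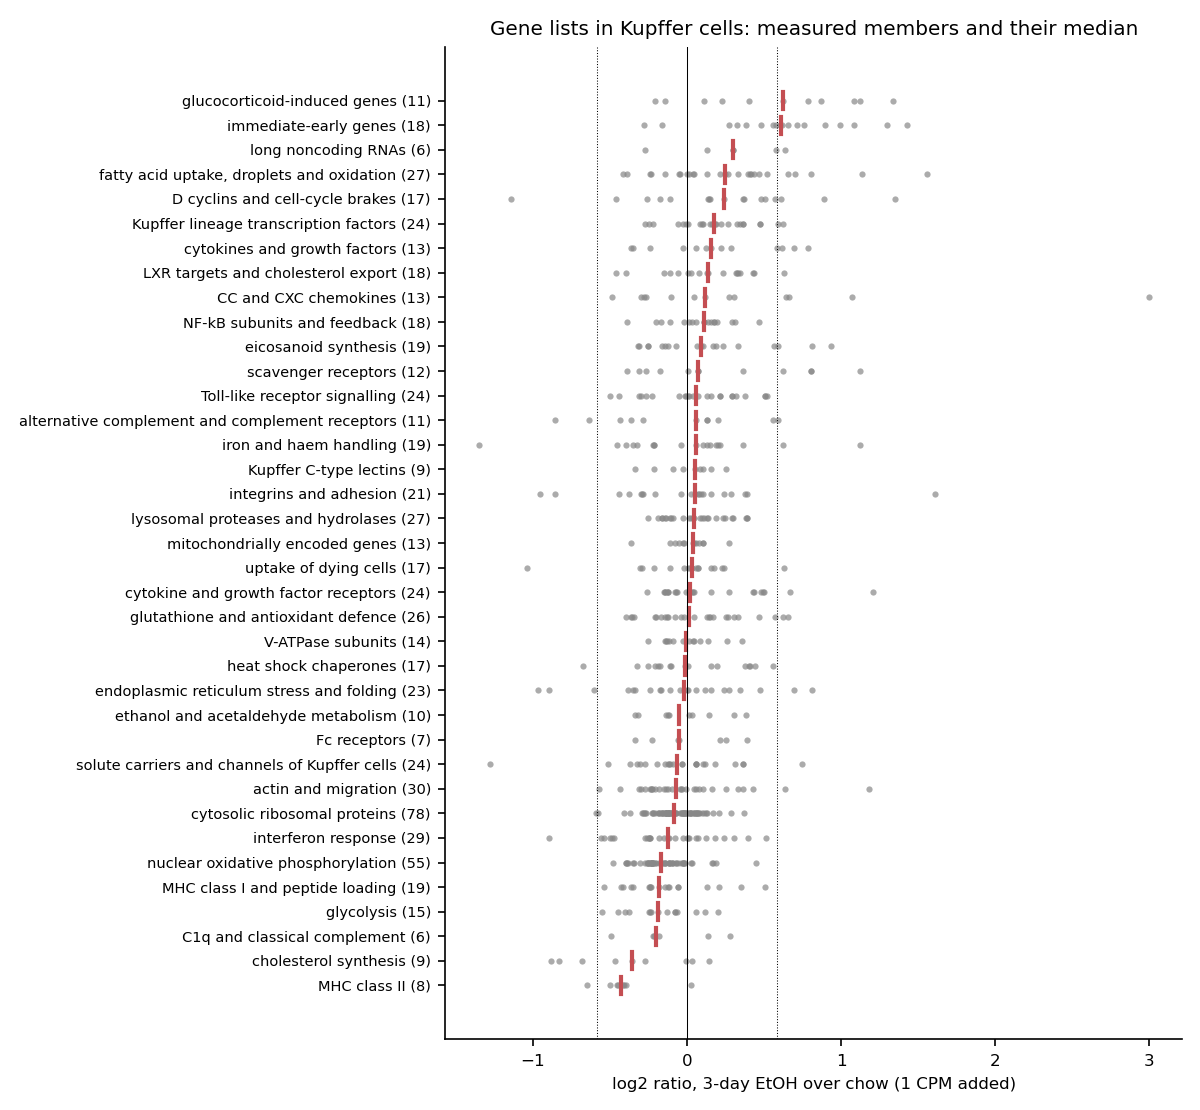
Each grey point is a measured gene of the list named on the y axis (number measured in brackets), placed at its log2 ratio of 3-day EtOH over chow in Kupffer cells (1 CPM added), the red bar is the list median and dotted lines mark ratios of 1.5 and 1/1.5. The glucocorticoid-induced and immediate-early lists have the highest medians (0.62 and 0.61) and class II the lowest (-0.43), and most other lists lie near 0.

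Cell-cycle genes were called in both directions. Ccnd1, the cyclin D1 gene that drives entry into the cycle, had 159 CPM in chow, 71.7 CPM at 3 days and 189 CPM at 10 days. The inhibitors Cdkn1a (8.54, 23.3 and 14.6 CPM), Cdkn1b (45.4, 69.7 and 48.4 CPM) and Cdkn2c (8.22, 16.04 and 8.00 CPM) were higher at 3 days. In chow, 61.7% of the Cdkn1a UMIs were in 1% of the cells. Of 17 measured cyclins and brakes, 3 were higher and 1 lower. Pmaip1, the proapoptotic Noxa gene, had 42.4, 79.6 and 80.8 CPM, a ratio of 1.88 (1.69 to 2.09). Within depth classes the ratio of Pmaip1 was 1.27 to 1.92. Among 8 measured proliferation markers, Top2a was higher (25.2 against 41.7 CPM), and Mki67 had 13.1 and 16.04 CPM.

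Genes of folding in the endoplasmic reticulum had members on both sides. Of 23 measured, 2 were higher, Ddit3 (28.2 against 50.1 CPM), the stress factor CHOP, and Herpud1 (53.9 against 87.9 CPM), which serves protein degradation. Creld2 (41.9 against 20.9 CPM), Sdf2l1 (103 against 54.5 CPM) and Manf (184 against 121 CPM), secreted or luminal folding proteins, were lower. Manf did not reach the limit in any depth class (0.67 to 0.96). The median log2 ratio was -0.02, so no shift of the list as a whole was seen.

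Energy, ribosome and actin genes showed small differences. Of 55 nuclear oxidative phosphorylation genes 49 had a ratio below 1, but 0 were called. Their median log2 ratio was -0.17, and -0.06 in cells of 2000 to 5000 UMIs. Glycolysis genes had a median of -0.19, with Gapdh at 404 and 275 CPM and Pkm at 243 and 183 CPM. The 13 mitochondrially encoded genes summed to 51009 and 51855 CPM, with a median log2 ratio of 0.04. Cytosolic ribosomal proteins had a median of -0.09 over 78 genes. In cells of 2000 to 5000 UMIs the median was 0.14 for ribosomal and -0.15 for mitochondrially encoded genes, so both turned with depth. Actin and migration genes summed to 46265 CPM in chow and 39999 CPM at 3 days, with the largest difference in the monomer-binding peptide Tmsb4x (23989 against 19349 CPM), while the formin Inf2 was higher (21.1 against 49.1 CPM). Of uptake machinery, 0 of 27 lysosomal proteases and hydrolases and 0 of 14 V-ATPase subunits were called. Of 7 Fc receptors and 9 C-type lectins 0 were called as well. Over all measured genes 3.17% were higher and 1.25% lower, so lists of this size, and the ethanol list below, would hold few calls. Of 17 genes for uptake of dying cells, Abca1 was higher and Tgm2 lower. Of 24 carriers and channels, the endolysosomal carrier Slc15a4 was higher (48.7 against 82.1 CPM) and the potassium channel Kcnj10 lower (73.1 against 29.5 CPM). The ethanol and acetaldehyde list had 0 genes called of 10: Aldh2, the mitochondrial acetaldehyde dehydrogenase, had 594 and 599 CPM and catalase (Cat) 124 and 137 CPM. Cyp2e1, a hepatocyte enzyme that oxidises ethanol, had 21.3 and 28.0 CPM in Kupffer cells, and the part of free hepatocyte RNA in these values was not tested.

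Per-cell counts were compared after each Kupffer cell had been thinned at random to 1000 UMIs, so that depth was equal and no cell was left out. Vcam1 was seen in 27.0% of chow cells (95% interval 25.3% to 28.8%) and 58.0% of 3-day cells (56.4% to 59.6%), unthinned 63.4% and 86.4%. In thinned lymphocytes, taken as the background, the shares were 2.03% and 11.4%. Cells with 2 or more Vcam1 UMIs were 5.83% and 27.7%, and the means were 0.35 and 1.06 per 1000. The whole distribution lay further right at 3 days, with cells at 0 remaining the largest class. For Ccl6 the cells with 2 or more UMIs were 20.7% and 48.6%, and for Cd163 13.4% and 35.3%. Txnip was seen in 39.9% and 58.3% of cells (unthinned 86.0% and 90.9%), beside 15.5% and 24.8% of lymphocytes. Median depths were 3782 and 2676 UMIs in lymphocytes before thinning. Ttc39c was seen in 0.67% and 12.3% of cells, and no 3-day cell had more than 3 UMIs. Its variance over mean was 1.05 at 3 days, close to the 1 of random counts. Sparse counts pull this value toward 1, as for Acot1 and Kcnj10 (both 1.04), though Egr1 had 1.80. The value therefore does not show that Ttc39c was spread evenly over the cells. Tgm2 was seen in 29.6% and 15.9% of cells (unthinned 74.0% and 40.0%), and Folr2 in 53.9% and 42.6% (unthinned 90.0% and 75.8%).

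**Figure D4:**
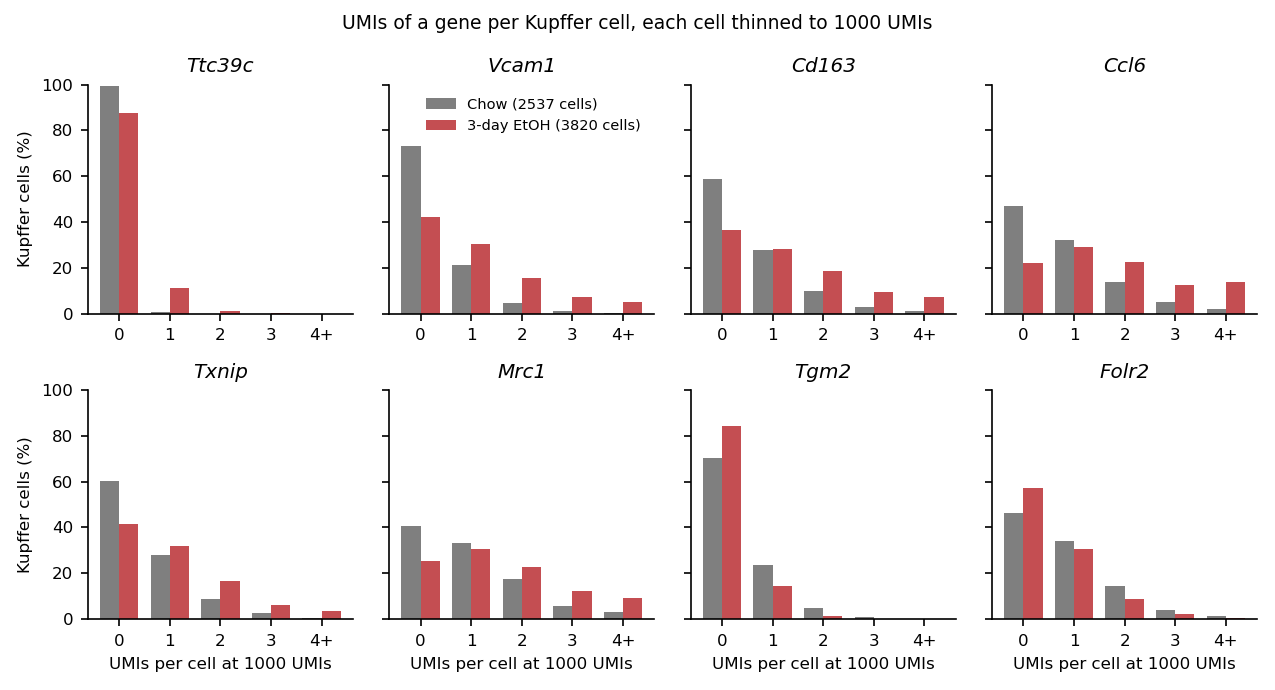
Percent of Kupffer cells (y axis, from 0 to 100) with 0, 1, 2, 3 or at least 4 UMIs of a gene (x axis) after thinning to 1000 UMIs, in chow (grey, 2537 cells) and 3-day EtOH (red, 3820 cells). For Vcam1, Cd163, Ccl6, Txnip and Mrc1 the 3-day bars are lower at 0 and higher at 2 and above, and for Tgm2 and Folr2 the bar at 0 is higher at 3 days.

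Whether the higher genes marked the same cells was described by how often they were seen together in the thinned 3-day cells. Over 45 pairs of 10 genes (Ttc39c, Ccl9, Vcam1, Cd163, Ccl6, Plin2, Sult1a1, Engase, Txnip and Serinc3), the odds ratio of co-occurrence had a median of 1.03 and lay between 0.80 and 1.34. These genes were thus seen nearly independently of each other, at this depth of 1000 UMIs. Dusp1, Fos and Klf4 differed: their 3 pairs had odds ratios of 1.38 to 2.05. Fos was seen in 32.3% of 3-day cells with Dusp1 and 18.9% of those without. The same pair had an odds ratio of 2.02 in chow and 2.05 at 3 days. The lowest value of all pairs was Vcam1 with Klf4, 0.66. Cells of 1 library share their source, so these are descriptions of the libraries.

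Kupffer cells were also split by single genes. Cells with a UMI of Timd4, a receptor for dying cells found on long-lived Kupffer cells, numbered 2104 in chow and 2671 at 3 days, and cells without numbered 433 and 1149. Cells without were shallower (medians of 2965 and 2437 UMIs), so this split is partly one of depth. Ratios of Cd163 were 2.18 with and 2.21 without a Timd4 UMI, of Vcam1 3.02 and 2.79, and of Ccl9 9.60 (7.79 to 11.9) and 5.12 (3.28 to 8.43). For Rara they were 2.18 (1.90 to 2.50) and 1.38 (1.02 to 1.91). Splits by Marco and by Cd36 gave Cd163 ratios of 2.11 to 2.23 and Vcam1 ratios of 2.84 to 3.18. Of the 71 genes named by rank of ratio, CPM or share of cells, Apoe alone changed side, in 1 of 6 subsets.

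Median depth differed between the libraries, so the ratios were taken again within 3 classes of cells. Classes of 1000 to 2000, 2000 to 4000 and over 4000 UMIs held 205, 768 and 1564 chow cells and 734, 1914 and 1172 3-day cells. Of the 71 ranked genes 25 were called higher. Of these, 17 passed 1.5 in all 3 classes, 25 stayed above 1 in all 3, and Mrc1, Hmox1 and Klf2 passed in none. Another 20 were called lower: 12 passed the limit in all 3 classes, and Manf, Psme2 and Tmem176a passed in none. For 12 of the 25 and 9 of the 20, the ratio over all cells lay outside the range of the classes. Apoe, an apolipoprotein made by Kupffer cells, had 12504, 11587 and 8804 CPM in the chow, 3-day and 10-day libraries. Its ratio was 0.93 over all cells, 1.04 in cells over 4000 UMIs and 1.02 in those of 2000 to 5000 UMIs, so its direction turned with depth.

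**Figure D5:**
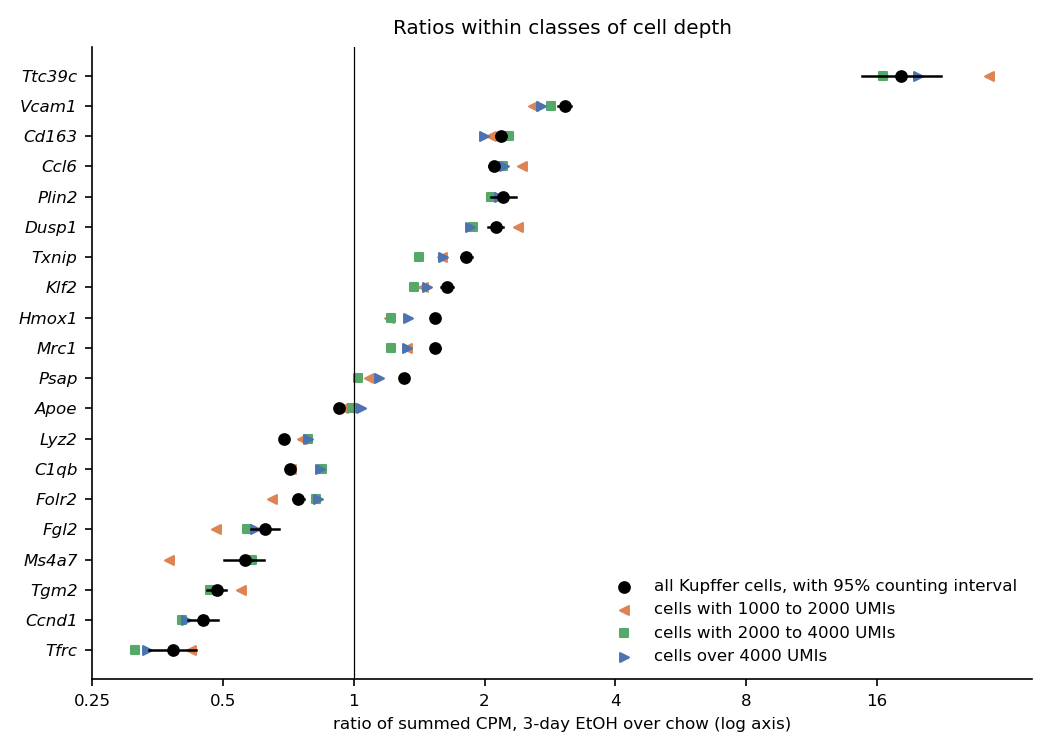
Ratio of summed CPM, 3-day EtOH over chow (log x axis), for 20 genes in all Kupffer cells (black, with the 95% counting interval as a line) and in 3 classes of depth (coloured markers). Ttc39c, Vcam1, Cd163, Ccl6, Tgm2, Ccnd1 and Tfrc keep their side in each class, whereas Txnip, Klf2, Hmox1, Mrc1, Psap and Apoe lie nearer 1 in the classes than over all cells.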

How the data were processed

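RNA was measured in single cells sorted from the livers of 3 male mice. Per the submitters' processing notes the authors used Cell Ranger 2.2.0 with GRCm38 and mm10, and the deposited matrices hold raw UMI counts per gene and barcode, with no cells chosen. The annotation release and settings are not given in the sources used here. Libraries held 21650747 (chow), 21471782 (3 days) and 16538895 (10 days) UMIs. Kupffer cells were chosen by the rule in the report. In each library the counts of these cells were added up and scaled to CPM. Members and gene lists were chosen with earlier results of these data known. With 1 library a group no test was run. Ratios carry exact conditional binomial 95% intervals and shares Clopper-Pearson intervals, which cover counting error only. A gene was measured at a mean of at least 10 CPM and called at 1.5-fold. Genes named by rule were the 20 highest and 20 lowest log2 ratios (1 CPM added) at 50 CPM or more in a library with an interval excluding 1, the 10 largest rises and 10 largest falls in CPM and in thinned share, and list members of large ratio or known role. Mitochondrial, ribosomal protein, immunoglobulin, Gm, Rik, hepatocyte and erythroid genes were left out of the ranking. Subsets, counts over depth classes and gene ratios under the alternatives covered the 71 genes of this ranking, not genes named from lists alone. Results on some genes are not reported here. Coordinates are from GENCODE vM21, which held 28339 of 28692 gene IDs. Simulated counts for 7549 genes in this comparison gave calls for 100% of genes changed by 2 and by 0.5 and for 0.0136% of unchanged genes, and 94.7% of intervals on unchanged genes held the truth. Both sides were drawn at random from 1 averaged profile, without spread between mice, libraries or cells. These shares therefore cover counting error only and are no error rate of the calls reported here. Python 3.11.15, numpy 2.4.6, pandas 2.3.3 and scipy 1.17.1 were used. Alternatives changed the cell limits, the depth, the scaling, the CPM added, the measured limit, the free RNA and the barcodes kept.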

Additional observations from a re-analysis of the deposited data

Results flagged for a closer look

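Barcodes with 10 to 100 UMIs hold mostly free RNA, and their values are given only beside those of the Kupffer cells. In them the 16 hepatocyte markers summed to 9910 CPM at 3 days, against 3027 CPM in chow, while the same genes summed to 1464 and 1295 CPM in the Kupffer cells. Apoa2 and Apoc3, apolipoproteins made by hepatocytes, were called higher in the 3-day Kupffer cells. Apoa2 had 134 CPM at 3 days against 62.1 CPM in chow, and Apoc3 had 39.0 CPM against 12.8 CPM. The part of free RNA in these values was not tested.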

How the results depend on the processing

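No paired analysis was possible because each group had 1 library and no test was run. Under 17 alternatives the numbers of higher and lower genes stayed within 1.5 times the main 239 and 94 in 12 each. The exceptions were 370 higher genes with mitochondrial UMIs at most 5%, 175 lower genes in cells of 2000 to 5000 UMIs, 903 and 858 without barcodes holding 3 UMIs of 8 lists of other cells (200 chow and 533 3-day cells were left), 87 and 31 with 10 CPM added, 652 and 490 with genes measured at 1 CPM, and 67 and 22 at 50 CPM. Of 1207 gene ratios under the alternatives 924 moved by less than their interval, and 1 turned, Apoe at 1.02 in cells of 2000 to 5000 UMIs. Of 629 list medians 45, over 18 lists, had the other sign, 11 of them in cells of 2000 to 5000 UMIs. Only 4 of the 45 were of lists with a main median at least 0.1 from 0: NF-kB genes to a log2 ratio of -0.025 in cells of that depth, glycolysis to 0.065 and cyclins and brakes to -0.061 with the 8 lists removed, and chemokines to -0.017 in cells with an immediate-early sum at or below the chow median. The causes were not tested. Of 40 thinned shares 14 stayed within their interval at 2000 UMIs or unthinned. Of the 17 alternatives, 3 were chosen after seeing the data: removal of cells with markers of 6 lists (201 higher, 124 lower), the immediate-early limit (238, 135) and removal of shared barcodes (241, 98). In the same order 152 and 68, 159 and 60, and 235 and 94 of these were also main calls. Like numbers thus did not always mean the same genes. Genes under 50 CPM rest on few UMIs per cell.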

Other observations

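Circadian clock genes were looked at after Cry1, a clock repressor, was seen among the highest ratios. Cry1 had 3.75 CPM in chow, 16.6 CPM at 3 days and 8.32 CPM at 10 days, from 47, 215 and 76 UMIs. Its ratio at 3 days over chow was 4.42 (95% counting interval 3.21 to 6.20). Arntl, the activator BMAL1, had 17.5, 26.5 and 17.3 CPM, and its partner Clock had 42.0, 44.3 and 47.6 CPM. The output factor Tef had 12.5, 20.5 and 17.7 CPM, with a ratio of 0.92 at 3 days in cells of 1000 to 2000 UMIs. Nr1d1, the repressor REV-ERB alpha, had 3.67, 1.77 and 2.52 CPM, from 46, 23 and 23 UMIs. Per2 had the largest ratio of the clock genes looked at, 5.94 (2.65 to 15.6), but from 7 and 43 UMIs. Cry2 had a ratio of 3.01 (1.74 to 5.44), whereas Nr1d2 had 0.87 and Per3 0.91. Not every clock gene looked at is given here. The hour at which each mouse was killed is not given in the sources used here.

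Immunoglobulin genes stood at the bottom of the ranking and were left out of it. Igha, the heavy chain of immunoglobulin A, had 387 UMIs (30.9 CPM) in the chow Kupffer cells and 0 at 3 days. A count of 0 allows up to 0.231 CPM (3 UMIs over the library's Kupffer cells), so its level was at least 133-fold lower. Erdr1, which lies at the end of the sex chromosomes and is repeated there, had 23.9 CPM in chow, 1.62 CPM at 3 days and 4.05 CPM at 10 days.

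The serine protease inhibitor Serpina3g had 36.4 CPM in chow, 14.3 CPM at 3 days and 19.7 CPM at 10 days, and Serpina3f had 27.2, 8.87 and 9.64 CPM. The family holds near-identical copies, so the split between these 2 genes is uncertain. Hbegf, a growth factor that binds the EGF receptor, had 24.0, 9.18 and 15.0 CPM. These genes were chosen after their values were seen.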
